A study of Mus musculus with 20 samples.

Results

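The kidney genes that move protons, bicarbonate and other anions across membranes were followed over 5 groups of mouse kidneys. They are the subunits of the vacuolar proton pump (V-ATPase), the carbonic anhydrases, the SLC4 bicarbonate transporters and the SLC26 anion exchangers. They were taken by gene name, as every name that begins with Atp6v, Car and a number, Slc4a and a number, or Slc26a and a number. These families, and the cell type lists used below, were chosen with earlier results of these data known. The rule took 60 of the 27827 gene names on the array, read by 94 probes. There were 22 names of the Atp6v pattern, 16 carbonic anhydrases, 11 Slc4a names and 11 Slc26a names. One Slc4a name, Slc4a1ap, belongs to an adaptor protein that is no transporter. Of the 60 members, 55 passed the filter on dim genes in at least 1 comparison, and Car6, Slc26a5, Slc26a8, Slc26a9 and Slc4a10 did not.

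The kidney keeps the acidity of the blood within narrow bounds by reclaiming filtered bicarbonate in the proximal tubule and by secreting acid or base from the intercalated cells of the collecting duct. In the proximal tubule, luminal and cytosolic carbonic anhydrases interconvert carbon dioxide and bicarbonate, and the cotransporter encoded by Slc4a4 returns bicarbonate to the blood. Type A intercalated cells pump protons with a V-ATPase built from kidney-restricted subunits and release bicarbonate through Slc4a1, and type B cells secrete bicarbonate through Slc26a4.

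All mice were C57BL/6 males of 8 to 12 weeks, and total RNA of the kidney was hybridised to 1-colour Agilent arrays, 4 per group. Control mice had no ischemia and no hemin. Whether they were operated on is not stated, and none of the 5 groups is labelled as sham-operated. IRI mice underwent 45 min of ischemia, with both renal pedicles clamped, and 6 h of reperfusion. IRI+Hemin mice received hemin, an inducer of heme oxygenase 1, at 25 mg/kg 24 h before the same injury, Hemin mice received hemin and no surgery, and IPC+IRI mice had 15 min of ischemic preconditioning 7 days before the injury. Each value below is the log2 of a gene's processed signal over the 75th percentile of its array, so that 0 is that percentile. A level is never compared between probes of different genes, and a difference is the mean of the first-named group minus that of the second.

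The 75th percentile of the processed signal lay between 146.7 and 357.9, and between 57.4% and 67.4% of the genes on an array were well above background. No member spot was saturated or flagged, and 50 members were well above background on all 20 arrays. Each group was hybridised on a slide of its own. The scanner dates put Control with IRI, IPC+IRI with Hemin, and IRI+Hemin by itself. Only IRI vs Control therefore lies within 1 scan day; in the other comparisons the scan day and the group cannot be told apart, and in none can the slide. The arrays held the defining transcripts of kidney tubules, since 8 of 8 proximal tubule markers and 10 of 10 intercalated cell markers were well above background on every array. Lcn2, a transcript of injured tubules, was higher in IRI than in Control (log2 difference 5.06, SE 0.43, adjusted p = 1.04e-07, limma with Benjamini-Hochberg adjustment over all genes tested, as in every adjusted p here).

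Against Control, more members were lower than higher. In IRI vs Control, 20 of 54 tested members were lower and 4 were higher, or 37% and 7.41%, beside 33.7% lower and 17% higher among all genes tested. The median difference of the members was -0.23 and that of all genes -0.17. In IPC+IRI vs Control 20 of 53 members were lower and 9 higher, where 32.6% and 23.1% of all genes were called. Hemin vs Control gave 13 lower and 7 higher of 55, against backgrounds of 17.5% and 18.4%. Among the members these were 37.7% lower and 17% higher in IPC+IRI, and 23.6% lower and 12.7% higher in Hemin. These counts depend on the processing. With normexp, another background correction, they were 7 lower and 1 higher in IRI and 15 and 5 in IPC+IRI. Without normalization between arrays they were 9 lower and 3 higher in IRI, 7 lower and 13 higher in IPC+IRI and 3 lower and 28 higher in Hemin, and with the percentile over bright probes 24 and 5 and 16 and 5. The deposited values gave 23 lower and 1 higher in IRI and 20 and 5 in IPC+IRI. A gene could also enter through a group where it is high, as Slc4a5 and Slc26a7 did in IRI vs Control, so the counts over tested members are descriptions.

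Against IRI, the members split more evenly. In IPC+IRI vs IRI 16 of 53 were higher and 14 lower, beside 26% and 17.7% of all genes. In IRI+Hemin vs IRI 10 of 52 were higher and 15 lower, and the background was 26.1% higher and 18% lower. The members' own shares were 30.2% higher and 26.4% lower in the first and 19.2% higher and 28.8% lower in the second, and both comparisons use the 4 IRI arrays. For ischemia under hemin, IRI+Hemin vs Hemin, 17 of 54 were lower and 6 higher, with 27.8% and 16.4% of all genes called. With normexp the lower members were 8 in IPC+IRI vs IRI and 9 in IRI+Hemin vs Hemin. Without normalization the counts were 17 higher and 1 lower in IPC+IRI vs IRI, 16 and 4 in IRI+Hemin vs IRI and 1 and 14 in IRI+Hemin vs Hemin, and the deposited values gave 15 higher and 8 lower in IRI+Hemin vs IRI. Of the 139 calls of named members, 58 were lost without normalization and 55 with normexp. These counts make no statement particular to the families, and the members that moved are given by role.

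**Figure D1:**
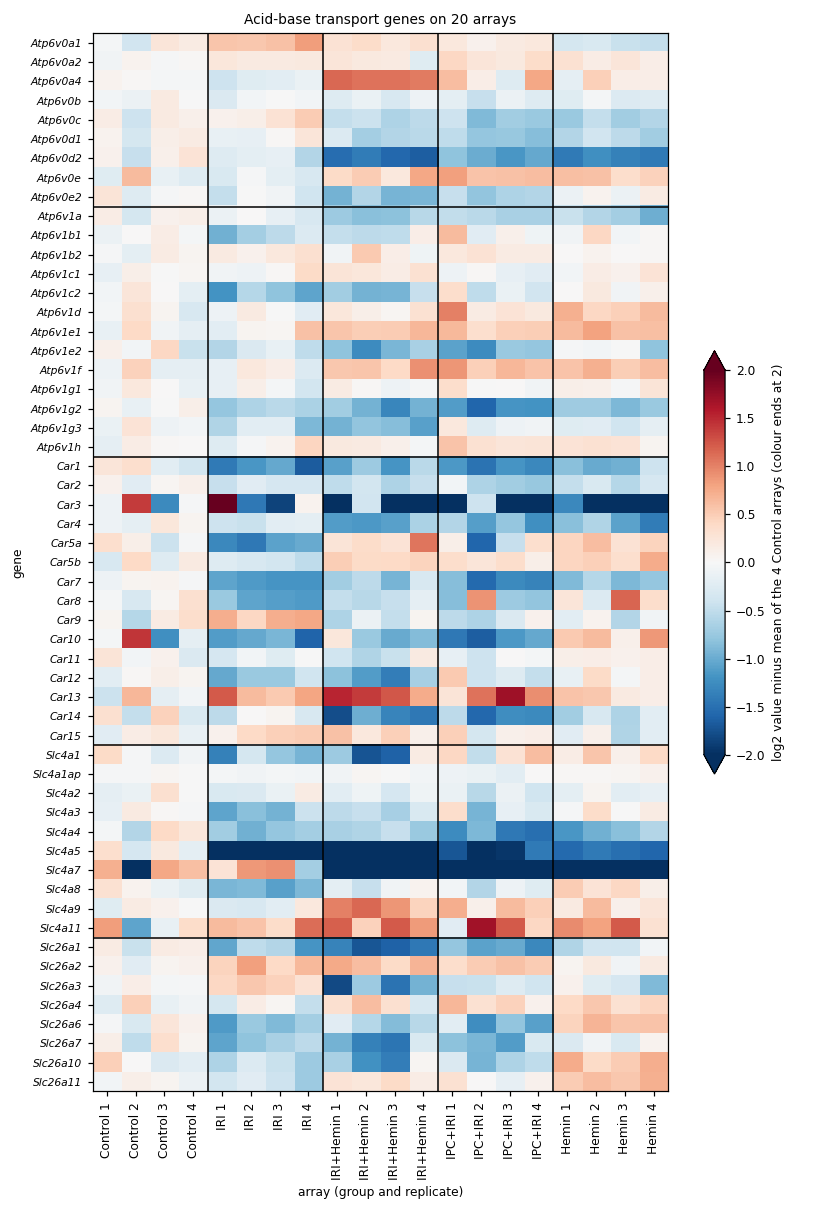
Heat map of the 55 members that passed the filter (rows, in family order) on the 20 arrays (columns, by group and replicate). Colour gives each array's log2 value minus the mean of the 4 Control arrays, with the scale ending at 2 in either direction. Car7 and Car1 lie below the Control mean on every array of the other 4 groups, Atp6v0a4 is highest on the 4 IRI+Hemin arrays, and Slc4a7 is at least 2.03 below the Control mean on the 12 later arrays.

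The V-ATPase joins a membrane sector, V0, that carries the protons and a cytosolic sector, V1, that hydrolyses ATP, and several subunits come in a broadly expressed and a kidney-restricted form. After ischemia the kidney-restricted V1 subunits C2, G3 and B1 fell and their broadly expressed partners did not pass the test. Atp6v1c2, the C2 subunit, read 1.88, 2.18, 1.94 and 1.74 on the Control arrays and 0.74, 1.36, 1.13 and 0.88 on the IRI arrays. The groups did not overlap, and the fall was 1.88-fold (log2 difference -0.91, SE 0.18, adjusted p = 0.00039). Its partner Atp6v1c1 differed by 0.06 (SE 0.11, adjusted p = 0.671). Atp6v1g3, the G3 subunit, stood at 1.87, 2.28, 1.89 and 1.95 in Control and at 1.39, 1.79, 1.78 and 1.10 in IRI, again without overlap (log2 difference -0.48, SE 0.15, adjusted p = 0.0116), while Atp6v1g1 gave -0.11, adjusted p = 0.456. In a sample of whole kidney, fewer cells of a type and less RNA per cell cannot be told apart.

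Atp6v1b1, the B1 subunit whose loss causes distal renal tubular acidosis with deafness, had 0.45, 0.58, 0.72 and 0.53 in Control. The IRI arrays gave -0.40, -0.11, 0.05 and 0.29, all below every Control array (log2 difference -0.61, SE 0.19, adjusted p = 0.0138). Its broadly expressed partner Atp6v1b2 was at 0.20 (adjusted p = 0.18). The call of Atp6v1b1 was lost with normexp background correction (adjusted p = 0.163) and without IRI replicate 1, whereas Atp6v1c2 and Atp6v1g3 remained called with normexp. Atp6v1g3 missed the threshold when the 8 compared arrays, which share a scan day, were fitted alone, and with the mean of log2 values over probes. Without normalization between arrays neither Atp6v1g3 nor Atp6v1b1 was called. The V1 sector as a whole had 4 of 13 members (30.8%) lower, beside 33.7% of all genes, and none higher at the adjusted threshold, the other being Atp6v1g2, and 4 of 13 had an unadjusted p below 0.05.

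In the V0 sector, 1 of 9 members (11.1%) was higher in IRI than in Control and none lower, beside 17% and 33.7% of all genes, with 2 of 9 at an unadjusted p below 0.05. The higher one was Atp6v0a1, the broadly expressed a1 subunit, whose values were -1.05, -1.39, -0.76 and -0.85 in Control and -0.46, -0.48, -0.43 and -0.17 in IRI. The IRI arrays were all higher, by 1.55-fold (log2 difference 0.63, SE 0.12, adjusted p = 0.000267). Its 3 probes, at chr11:100880956-100881015, chr11:100881876-100882418 and chr11:100924471-100924530 (mm9), rose by 1.08, 1.40 and 0.44, and each passed the test, though the gene's call was lost with the deposited values. The kidney-restricted a4 and d2 subunits did not pass it, with Atp6v0a4 at -0.25, adjusted p = 0.255 and Atp6v0d2 at -0.30, adjusted p = 0.0804.

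Atp6v0a4, the other subunit gene of inherited distal renal tubular acidosis, was high in IRI+Hemin. Its levels on the IRI+Hemin arrays were 2.92, 2.84, 2.85 and 2.80. Those of IRI were 1.35, 1.53, 1.55 and 1.64, those of Hemin 1.58, 2.24, 1.90 and 1.89 and those of Control 1.83, 1.79, 1.73 and 1.72. The 4 IRI+Hemin arrays were thus the highest 4 of all 20. The difference from IRI was 1.33 (SE 0.18, adjusted p = 2.37e-05), or 2.52-fold, and that from Hemin 0.95 (SE 0.18, adjusted p = 0.000361). Against IRI both probes were higher, the one at chr6:37998756-37998815 by 1.01 and the one at chr6:38038024-38038671 by 2.04. Against Hemin the first missed the threshold (0.72, adjusted p = 0.0521), and it is the brighter probe, so that the call from the brightest probe alone was lost there. The broad partner Atp6v0a1 was lower in IRI+Hemin than in IRI (log2 difference -0.33, SE 0.12, adjusted p = 0.0287), which 1 of its 3 probes carried (-0.53, adjusted p = 0.0114) and which was lost without IRI replicate 4 or IRI+Hemin replicate 1 or 3 and turned to 0.031 without normalization.

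Atp6v0d2, the d2 subunit, was lowest in the groups given hemin. It read -1.15, -1.02, -1.19 and -1.28 in IRI+Hemin and -1.04, -0.85, -0.98 and -1.05 in Hemin, with IPC+IRI at -0.43, -0.63, -0.80 and -0.64. Control gave 0.46, -0.09, 0.47 and 0.65 and IRI 0.12, 0.17, 0.20 and -0.21, above each of the 12 other arrays. In Hemin it was 2.56-fold lower than in Control (log2 difference -1.35, SE 0.14, adjusted p = 1.48e-05). Those 12 arrays are also the ones scanned on the later days, and the same split held for Atp6v0c, the proteolipid of the proton-carrying ring, for Atp6v1a, the catalytic A subunit, and for Car4. In all, 4 of the 55 members had the later arrays all below the 8 of Control and IRI, beside 2.46% of all genes, and 0 had them all above, beside 1.67%.

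**Figure D2:**
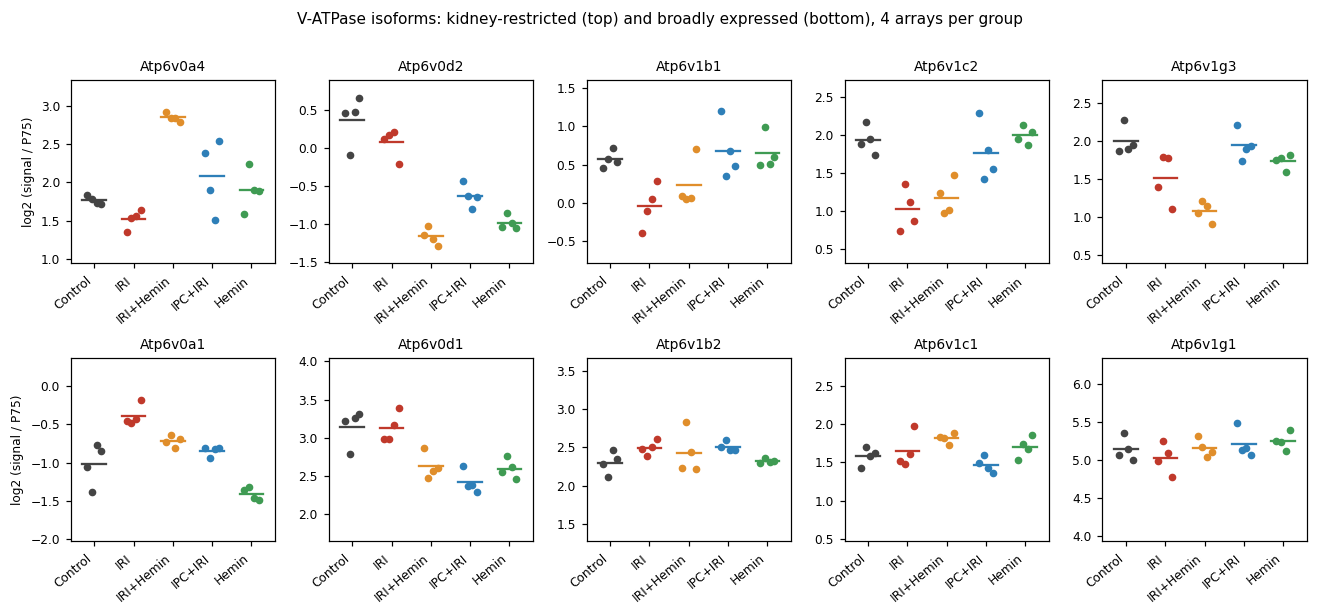
Levels of 5 kidney-restricted V-ATPase subunit genes (top row) and of their broadly expressed partners (bottom row) on the 4 arrays of each group. The y axis is the log2 signal over the array's 75th percentile, points are arrays and bars are group means. The 4 IRI arrays lie below the 4 Control arrays for Atp6v1b1, Atp6v1c2 and Atp6v1g3 and above them for Atp6v0a1.

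Several kidney-restricted subunits were higher in preconditioned than in unconditioned injured kidneys. In IPC+IRI vs IRI, Atp6v1c2 was higher by 0.74 (SE 0.18, adjusted p = 0.00277), Atp6v1b1 by 0.72 (SE 0.19, adjusted p = 0.00639) and Atp6v0a4 by 0.57 (SE 0.18, adjusted p = 0.0146). The IPC+IRI arrays read 2.29, 1.42, 1.80 and 1.55 for Atp6v1c2 and 1.20, 0.34, 0.68 and 0.48 for Atp6v1b1, all above the IRI arrays. The rise of Atp6v0a4 rests on 1 of its 2 probes, with 1.24, adjusted p = 5.57e-05 beside 0.21, adjusted p = 0.572 for the brighter one, and it was also lost when the compared arrays were fitted alone and without IPC+IRI replicate 1 or 4. Atp6v1g3 had 2.21, 1.74, 1.89 and 1.93, overlapping IRI (log2 difference 0.43, SE 0.15, adjusted p = 0.0265), and that call was lost with normexp, in the compared arrays alone and without any one of IRI replicates 1 and 4 and IPC+IRI replicate 1, and the mean of log2 values over its probes turned it to -0.094. Against Control, IPC+IRI gave -0.17, adjusted p = 0.438 for Atp6v1c2, 0.11, adjusted p = 0.663 for Atp6v1b1, -0.05, adjusted p = 0.772 for Atp6v1g3 and 0.32, adjusted p = 0.13 for Atp6v0a4, none past the threshold. Atp6v0d2 did not follow them, being lower than IRI by 1.62-fold (log2 difference -0.70, SE 0.14, adjusted p = 0.000709), and this call was lost without normalization between arrays.

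The broadly expressed pump genes moved in both directions between the earlier and the later arrays. Atp6v0c fell in IPC+IRI (log2 difference -0.94, SE 0.14, adjusted p = 5.89e-05), IRI+Hemin (log2 difference -0.77, SE 0.14, adjusted p = 0.000306) and, against Control, in Hemin (log2 difference -0.62, SE 0.14, adjusted p = 0.00228). Atp6v0d1, the broad d1 subunit, and Atp6v1a were lower in the same comparisons, by -0.71, -0.51 and -0.55 for Atp6v0d1 and by -0.44, -0.59 and -0.68 for Atp6v1a. Atp6v0e and Atp6v1f, small subunits of the V0 and V1 sectors, were higher in them. Atp6v0e rose by 0.86, 0.68 and 0.50 and Atp6v1f by 0.67, 0.63 and 0.60, and the largest adjusted p among these was 0.0272. Without any normalization between arrays the falls of Atp6v0c, Atp6v0d1 and Atp6v1a did not pass the test, with Atp6v0d1 in Hemin vs Control at 0.017, and the rises did. Normexp ended the falls of Atp6v0c (adjusted p = 0.0652) and Atp6v0d1 (adjusted p = 0.181) in Hemin vs Control and of Atp6v1a in IPC+IRI (adjusted p = 0.167) and in IRI+Hemin (adjusted p = 0.0674) against IRI. With the deposited values the rises of Atp6v1f did not pass it, and that of Atp6v0e in Hemin vs Control was lost without any one of 5 of the 8 arrays.

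Other subunits were also higher after hemin or preconditioning. Atp6v1e1 was higher in Hemin than in Control by 0.66 (SE 0.15, adjusted p = 0.00292), and Atp6v1d, of the central stalk, by 0.56 (adjusted p = 0.017). IPC+IRI raised both over Control, by 0.49, adjusted p = 0.0106 and 0.41, adjusted p = 0.0482, and also Atp6v1h (0.34, adjusted p = 0.0332) and Atp6v0a2, a V0 subunit of the Golgi (0.30, adjusted p = 0.0169, turned to -0.042 for its brightest probe). The calls of Atp6v1d and Atp6v1h in IPC+IRI vs Control were lost under 10 or more of the alternatives tried for each, among them leaving out Control replicate 1. Atp6v1b2, Atp6v1c1 and Atp6v1g1 passed the test in none of the 6 comparisons, with the adjusted p of Atp6v1b2 between 0.144 and 0.942.

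Several cytosolic and mitochondrial carbonic anhydrases were lower in IRI than in Control. In IRI vs Control 5 of these 7 genes were lower and 1 was higher, beside 33.7% lower and 17% higher among all genes, with a median of -0.36. Of the 5 falls, only that of Car7 was kept with normexp. In IRI+Hemin vs Hemin none of the 7 was lower and 1 was higher, beside 27.8% and 16.4%, with a median of -0.07, and the difference between the comparisons passed the interaction test for 2 of the 7, Car1 and Car7. Car7, a cytosolic enzyme best known from the brain, showed clearly separated values. Control arrays gave 0.80, 0.95, 0.97 and 0.88 and IRI arrays -0.16, -0.23, -0.28 and -0.29. Every IRI array was far below every Control array, a fall of 2.2-fold (log2 difference -1.14, SE 0.14, adjusted p = 4.87e-06). The levels were 0.05, -0.65, -0.38 and -0.44 in IPC+IRI, 0.02, 0.32, 0.00 and 0.13 in Hemin and 0.21, 0.38, -0.03 and 0.58 in IRI+Hemin, all below Control as well. This is 1 of 31 named results that kept their call under every alternative tried.

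Car2, the main cytosolic enzyme of the tubule and the intercalated cell, fell less (log2 difference -0.34, SE 0.13, adjusted p = 0.0424), from 4.93, 4.63, 4.89 and 4.95 to 4.40, 4.63, 4.51 and 4.52, and that call was lost in 10 of its alternatives, among them normexp, the replicate block and leaving out Control replicate 1. Its fall in IPC+IRI vs Control was -0.53 (SE 0.13, adjusted p = 0.00261). Car1, the enzyme of red cells, dropped 2.49-fold in IRI (log2 difference -1.31, SE 0.19, adjusted p = 2.65e-05), from -1.13, -1.02, -1.58 and -1.73 to -2.77, -2.53, -2.38 and -3.04. Hba-a1, a hemoglobin chain of red cells, differed by 0.70 in the same comparison (SE 0.54, adjusted p = 0.293), and the part of red cells in the result was not tested. With normexp the Car1 call was lost (adjusted p = 0.0769).

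The mitochondrial pair, Car5a and Car5b, was lower in IRI than in Control or IRI+Hemin. Car5a read -2.45, -2.67, -3.20 and -2.80 in Control, -4.07, -4.21, -3.85 and -3.79 in IRI and -2.52, -2.42, -2.50 and -1.70 in IRI+Hemin. The IRI arrays were the lower of each pair without overlap, with log2 difference -1.20, SE 0.30, adjusted p = 0.00315 against Control and log2 difference 1.69, SE 0.30, adjusted p = 0.000299 for IRI+Hemin vs IRI, a 3.24-fold rise. Car5b had -1.43, -1.49, -1.54 and -1.67 in IRI and -0.68, -0.79, -0.77 and -0.72 in IRI+Hemin (log2 difference 0.79, SE 0.14, adjusted p = 0.000225). Car5b was also higher in IPC+IRI than in IRI (0.63, adjusted p = 0.00137). Car5a gave 0.80, adjusted p = 0.0402 there, with IPC+IRI replicate 2, at -4.36, below every IRI array, and that call was lost under 10 of 19 alternatives, 6 of them single arrays left out, and turned to -0.26 with normexp. The fall of Car5b in IRI vs Control (-0.36, adjusted p = 0.0344) was lost under 11 of 19 alternatives, 5 of them single arrays left out, and the mean of log2 values over its probes gave 0.27. These genes are dim, and with normexp none of their calls here was kept (adjusted p = 0.964 for Car5a in IRI vs Control).

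Car13, another cytosolic enzyme, was the one carbonic anhydrase of this group to rise in IRI (log2 difference 0.79, SE 0.27, adjusted p = 0.023), and it rose with ischemia in each setting. It was higher in IPC+IRI than in Control by 0.99 (adjusted p = 0.00521) and in IRI+Hemin than in Hemin by 0.87 (adjusted p = 0.0162). The IRI+Hemin arrays gave -1.31, -1.43, -1.59 and -2.10 and the Hemin arrays -2.26, -2.29, -2.66 and -2.69, without overlap, while IRI overlapped Control. Normexp ended the calls in IRI vs Control and in IPC+IRI vs Control (adjusted p = 0.22 and 0.226), and leaving out Control replicate 1 or 3 or IRI replicate 1 each ended the first. Car3, the enzyme of muscle and fat, was widely spread within groups, from -0.21 to 2.47 in Control, -0.78 to 3.13 in IRI and -3.99 to 0.65 in IPC+IRI. Its call in IPC+IRI vs Control (log2 difference -2.54, SE 0.96, adjusted p = 0.0325) stood beside a summed adipocyte list of 2.03 to 6.63 in Control and 2.40 to 5.59 in IPC+IRI, and the part of that list in the result was not tested. This call was lost under 7 of 19 alternatives, with normexp, without normalization and without Control replicate 1, 2 or 4 or IPC+IRI replicate 3 or 4.

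The membrane-bound enzymes showed another order. Car9, a hypoxia-inducible enzyme of the plasma membrane, was -0.82, -1.43, -0.71 and -0.51 in Control and -0.13, -0.46, -0.14 and -0.09 in IRI. All IRI arrays were higher (log2 difference 0.66, SE 0.21, adjusted p = 0.013). It was back near Control in IRI+Hemin (log2 difference -0.95, SE 0.21, adjusted p = 0.0014, against IRI) and in IPC+IRI (2-fold lower than IRI, SE of the log2 difference 0.21, adjusted p = 0.001), where no array reached the IRI level. The rise in IRI was lost with normexp (adjusted p = 0.121), with the deposited values and without Control replicate 2. Without normalization between arrays the falls against IRI, in IRI+Hemin and in IPC+IRI, both lost their call.

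Car12, a transmembrane enzyme of the collecting duct, was lower in IRI than in Control. The Control arrays read 2.35, 2.58, 2.67 and 2.61 and the IRI arrays 1.52, 1.80, 1.81 and 2.16, without overlap (log2 difference -0.73, SE 0.21, adjusted p = 0.00705). IPC+IRI lay at 3.08, 2.14, 2.30 and 2.08, above IRI on average (log2 difference 0.57, SE 0.21, adjusted p = 0.0315), and the IRI+Hemin arrays, at 1.73, 1.43, 1.18 and 1.89, were below all Hemin arrays (log2 difference -1.08, SE 0.21, adjusted p = 0.000497). The rise in IPC+IRI was lost without any one of 4 arrays, IRI replicates 1, 2 and 3 and IPC+IRI replicate 1, with the mean of log2 values over probes and in the compared arrays alone, and with the deposited values it turned to -0.85 (adjusted p = 0.284). The deposited values also ended the calls in IRI vs Control and in IRI+Hemin vs Hemin. Car15, a GPI-anchored enzyme of rodents, was called in IRI+Hemin vs Hemin alone, where it was higher (log2 difference 0.58, SE 0.18, adjusted p = 0.0155), and this call was lost with normexp and without IRI+Hemin replicate 1 or Hemin replicate 3.

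Car4 and Car14, the membrane-bound enzymes of the proximal tubule, did not pass the test in IRI vs Control (-0.31, adjusted p = 0.142 and -0.20, adjusted p = 0.521) and were low in preconditioned kidneys and after hemin with injury. Car14 read 3.31, 3.84, 3.88 and 3.52 in IRI, 2.06, 2.86, 2.51 and 2.41 in IRI+Hemin and 3.31, 2.26, 2.59 and 2.56 in IPC+IRI. Every IRI+Hemin array was below every IRI array, 2.26-fold on average (log2 difference -1.18, SE 0.24, adjusted p = 0.000906), and IPC+IRI vs Control gave -1.15 (SE 0.24, adjusted p = 0.000644). Car4 fell in Hemin without surgery too (log2 difference -0.98, SE 0.17, adjusted p = 0.00052), from 2.78, 2.70, 3.10 and 2.94 to 2.05, 2.27, 1.80 and 1.49, with the scan-day split given above. Of the 3 carbonic anhydrase-related proteins, which lack catalytic activity, Car8 was 2-fold lower in IRI (SE of the log2 difference 0.32, adjusted p = 0.0151), and Car11 was lower in IRI+Hemin than in Hemin (-0.43, adjusted p = 0.0299). Normexp ended both calls (adjusted p = 0.94 and 0.987). Car10 was above background on the 4 Hemin arrays and on 1 array each of Control and IRI+Hemin, so the size of its difference is not measured, and its call in IRI+Hemin vs Hemin (adjusted p = 0.0277) was lost with normexp (adjusted p = 0.958) and without any one of 6 of the 8 arrays.

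The SLC4 family had 5 of 9 tested transporters lower in IRI than in Control and none higher, beside 33.7% and 17% of all genes. Slc4a5 is among the 5 and passed the filter only through Control, where it was high, and of the other 8 transporters 4 were lower. Slc4a1, the chloride-bicarbonate exchanger AE1 of type A intercalated cells and of red cells, gave 1.88, 1.48, 1.23 and 1.43 in Control and 0.16, 1.15, 0.73 and 0.57 in IRI. The IRI arrays were all lower, 1.81-fold on average (log2 difference -0.85, SE 0.34, adjusted p = 0.0425). In IPC+IRI the values were 1.92, 1.01, 1.79 and 2.12, a 2.08-fold rise over IRI (log2 difference 1.06, SE 0.34, adjusted p = 0.017) with 1 array inside the IRI range. The tested red cell genes Hba-a1 (-1.71, adjusted p = 0.016), Hbb-b1 (-1.61, adjusted p = 0.0146) and Alas2 (-1.60, adjusted p = 0.0191) were lower in that comparison, and their part in the result was not tested. IRI+Hemin was spread from -0.22 to 1.67 and was lower than Hemin (log2 difference -1.28, SE 0.34, adjusted p = 0.00548). The call in IRI vs Control was lost with normexp (adjusted p = 0.0583) and without any one of 6 of the 8 arrays, and the rise in IPC+IRI without IRI replicate 1 or IPC+IRI replicate 4.

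Slc4a9, an exchanger of type B intercalated cells, did not pass the test in IRI vs Control (-0.15, adjusted p = 0.501) and was high in IRI+Hemin. The IRI+Hemin arrays read 1.41, 1.56, 1.29 and 0.85 and the IRI arrays 0.13, 0.08, 0.20 and 0.62, with no overlap and a 2.03-fold difference (log2 difference 1.02, SE 0.18, adjusted p = 0.00022). It was also higher in IPC+IRI than in IRI (log2 difference 0.63, SE 0.18, adjusted p = 0.00785). Slc4a2, the widely expressed exchanger AE2, passed the test in none of the 6 comparisons, with differences between -0.30 and -0.04.

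Slc4a8, a sodium-driven chloride-bicarbonate exchanger, and Slc4a3, the exchanger AE3 of excitable tissues, were dim and lower in IRI. Slc4a8 went from -1.82, -2.07, -2.27 and -2.37 in Control to -3.05, -3.02, -3.22 and -3.03 in IRI (log2 difference -0.95, SE 0.15, adjusted p = 4.55e-05) and was higher than IRI in IPC+IRI (0.70, adjusted p = 0.00101) and in IRI+Hemin (0.78, adjusted p = 0.000421). Normexp turned these 2 rises to -0.035 and -0.11. Slc4a3 gave -0.81, adjusted p = 0.00256 in IRI vs Control. Slc4a5, an electrogenic sodium-bicarbonate cotransporter, was above background on the 4 Control arrays and on no other array, so its changes are bounds. By the processed signal it was at least 2.26-fold lower in IRI (adjusted p = 1.08e-06), at least 3.12-fold lower in IPC+IRI (adjusted p = 3.51e-05) and at least 2.71-fold lower in Hemin (adjusted p = 0.000904) than in Control. The Control mean of -4.01 was set against the lowest signals well above background on the other arrays. Slc4a5 entered each of these comparisons only through Control, where it was high. With normexp the log2 differences were smaller, at -0.073, -0.52 and -0.57 in the same order, so the folds are bounds for the processed signal alone. With normexp none of these calls of Slc4a8, Slc4a3 and Slc4a5 was kept (adjusted p = 0.797 for Slc4a3 and 0.91 for Slc4a5 in IRI vs Control).

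Slc4a7, the electroneutral sodium-bicarbonate cotransporter NBCn1, had the largest differences of any member and also probes that disagreed. By the mean of its 3 probes it was 12.4-fold lower in IPC+IRI than in IRI (log2 difference -3.64, SE 0.50, adjusted p = 3.56e-05), 9.24-fold lower in IRI+Hemin (log2 difference -3.21, SE 0.50, adjusted p = 9.11e-05) and 13.3-fold lower in Hemin than in Control (log2 difference -3.73, SE 0.50, adjusted p = 8.82e-05). The probes lie at chr14:15572341-15572400 (A_52_P108502), at chr14:15614734-15618862 (A_51_P279997), whose 60 bases span 4129 bases of genome, and at chr14:15632300-15632359 (A_52_P333902), all in mm9 coordinates of the array files. The first and second are shown because they read the same gene name and moved in opposite directions. Each is 60 bases long, in the 5′ to 3′ direction of the array design, and 2 of its 3 reading frames hold no stop codon.
Slc4a7 A_52_P108502: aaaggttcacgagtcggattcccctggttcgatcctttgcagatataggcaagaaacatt
Slc4a7 A_51_P279997: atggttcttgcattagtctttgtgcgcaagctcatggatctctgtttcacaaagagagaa

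Probe A_52_P108502 read 5.55, 2.55, 5.62 and 5.45 in Control and 5.09, 5.70, 5.75 and 4.09 in IRI. In IRI+Hemin it read 0.62, 0.34, -0.41 and 2.09, in IPC+IRI 0.34, -0.12, -0.85 and -0.28 and in Hemin -0.45, -0.67, -0.77 and 0.21. All 12 later arrays were below all 8 arrays of Control and IRI, and Control replicate 2 was the lowest of those 8. Probe A_51_P279997 went the other way, from -1.46, -0.90, -1.50 and -1.57 in Control and -0.56, -0.13, -0.27 and -0.49 in IRI to 0.32, 0.49, 0.56 and 0.79 in IPC+IRI. For IPC+IRI vs IRI the 3 probes gave -5.38, 0.90 and 0.74, with adjusted p of 6.83e-06, 0.000441 and 0.0148, and for Hemin vs Control -5.22, 0.99 and 1.03. The direction of Slc4a7 in IPC+IRI, IRI+Hemin and Hemin therefore depends on the probe and is given here as unsettled.

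The second gene with opposed probes was Slc4a4, the electrogenic cotransporter NBCe1 that carries bicarbonate out of the proximal tubule cell. Its gene value fell 1.71-fold in IRI (log2 difference -0.78, SE 0.18, adjusted p = 0.00188), 2.43-fold in IPC+IRI (log2 difference -1.28, SE 0.18, adjusted p = 1.93e-05) and 1.85-fold in Hemin (log2 difference -0.89, SE 0.18, adjusted p = 0.00146), each against Control. The probe at chr5:89668602-89668661 (A_52_P457567) read 0.25, 0.53, 0.74 and 0.13 in Control and -2.83, -2.40, -2.65 and -3.18 in IRI. It was lower on every IRI array, by far the largest change of the 3 (log2 difference -3.18, SE 0.25, adjusted p = 3.83e-08). The probes at chr5:89626676-89626735 (A_51_P273800) and chr5:89666230-89666289 (A_52_P173402) gave -0.44, adjusted p = 0.086 and -0.26, adjusted p = 0.705, so that the call in IRI rests on 1 of 3 probes. With the brightest probe the calls in IPC+IRI and in Hemin against Control were lost too (-0.42, adjusted p = 0.0953 and -0.44, adjusted p = 0.101). In IRI+Hemin vs IRI the 3 probes were at 0.79, -1.77 and 2.15 in genome order, each past the threshold and not of 1 sign.

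**Figure D3:**
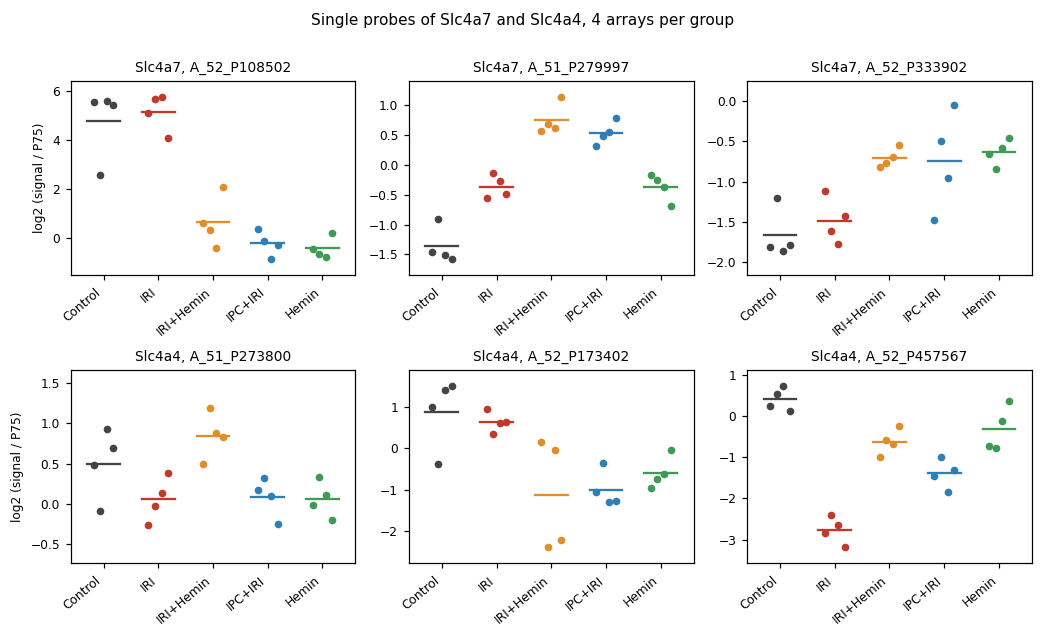
Levels of the 3 single probes of Slc4a7 (top row) and of Slc4a4 (bottom row), in genome order from left to right, on the 4 arrays of each group. The y axis is the log2 probe signal over the array's 75th percentile with a scale of its own in each panel, points are arrays and bars are group means. The first Slc4a7 probe falls from Control and IRI to the later groups, the second is higher in IPC+IRI and IRI+Hemin than in Control or IRI, and the last Slc4a4 probe has its lowest group mean in IRI.

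The SLC26 exchangers were lower in IRI than in Control in 4 of 8 tested members (50%) and higher in 1 (12.5%), beside 33.7% and 17% of all genes, and the 4 include Slc26a7, which passed the filter through Control, where it was high. Slc26a1, a sulfate and oxalate transporter of the proximal tubule's basolateral side, kept its call under every alternative in IRI vs Control. Control gave 2.97, 2.36, 2.97 and 2.94 and IRI 1.78, 2.31, 2.22 and 1.63. Every IRI array was lower (log2 difference -0.83, SE 0.18, adjusted p = 0.00095), and so were the IPC+IRI arrays, at 2.04, 1.75, 1.80 and 1.52 (log2 difference -1.03, SE 0.18, adjusted p = 0.000114). IRI+Hemin had the lowest values, 1.48, 1.10, 1.19 and 1.38, below IRI (log2 difference -0.70, SE 0.18, adjusted p = 0.00437) and 2.24-fold below Hemin (log2 difference -1.16, SE 0.18, adjusted p = 6.86e-05). Its probes, at chr5:109098994-109099053 and chr5:109099881-109099940, agreed in direction against Control but not in IRI+Hemin vs IRI, where they gave -1.12, adjusted p = 0.000936 and 0.62, adjusted p = 0.028 and where the gene's call was lost with normexp.

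Slc26a6, the chloride, oxalate and formate exchanger of the proximal brush border, was lower in IRI and higher in Hemin than in Control. The Control arrays read -1.04, -1.31, -0.78 and -0.93, the IRI arrays -2.15, -1.75, -1.90 and -1.70 and the Hemin arrays -0.57, -0.33, -0.46 and -0.45. No 2 of these groups overlapped (log2 difference -0.86, SE 0.19, adjusted p = 0.00111, for IRI, and log2 difference 0.56, SE 0.19, adjusted p = 0.028, for Hemin). In IRI+Hemin it was 2.16-fold lower than in Hemin, at -1.24, -1.59, -1.88 and -1.56 (log2 difference -1.11, SE 0.19, adjusted p = 0.000179). With normexp the calls in IRI vs Control (adjusted p = 0.309) and Hemin vs Control were lost, and the rise in Hemin was also lost without any one of 5 of the 8 arrays.

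Slc26a11, a sodium-independent sulfate transporter also found in intercalated cells, had the same order of these 3 groups. IRI arrays read 0.89, 1.03, 0.85 and 0.53, Control arrays 1.20, 1.38, 1.31 and 1.14 and Hemin arrays 1.77, 1.87, 1.80 and 1.98. The 3 groups did not overlap, with log2 difference -0.43, SE 0.12, adjusted p = 0.00508 for IRI and log2 difference 0.60, SE 0.12, adjusted p = 0.00108 for Hemin against Control. Slc26a11 was higher in IRI+Hemin than in IRI (log2 difference 0.69, SE 0.12, adjusted p = 0.000195) and in IPC+IRI than in IRI (log2 difference 0.49, SE 0.12, adjusted p = 0.00266), and these rises and that in Hemin held under every alternative.

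Slc26a2, the sulfate transporter of cartilage, rose with ischemia in all 3 injured groups. It read -1.91, -2.23, -1.94 and -1.92 in Control, -1.56, -1.17, -1.59 and -1.34 in IRI and -1.64, -1.49, -1.41 and -1.48 in IPC+IRI, with log2 difference 0.58, SE 0.12, adjusted p = 0.000537 and log2 difference 0.49, SE 0.12, adjusted p = 0.00179 against Control. Under hemin the rise was 0.52 (SE 0.12, adjusted p = 0.00197). Normexp ended the calls against Control (adjusted p = 0.106 in IRI).

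Slc26a4, or pendrin, the apical exchanger of type B intercalated cells, was bright and moved little. Its only call was in IPC+IRI vs IRI (log2 difference 0.54, SE 0.20, adjusted p = 0.0377), with 5.03, 4.66, 4.82 and 4.45 against 4.01, 4.52, 4.40 and 3.88, and it was lost without any one of 4 of the 8 arrays. Slc26a7, of type A intercalated cells in the outer medulla, was well above background on all arrays of Control and Hemin but on only 1 of IRI, 2 of IRI+Hemin and 3 of IPC+IRI, so the sizes of its differences are not measured. It was called lower in IRI (adjusted p = 0.0128) and IPC+IRI (adjusted p = 0.00901) than in Control and in IRI+Hemin than in Hemin (adjusted p = 0.0069), and normexp ended each of these calls and turned the first in direction. Slc26a3, a chloride-bicarbonate exchanger of the gut, was above background on the 4 IRI arrays, on 3 Hemin arrays and on 2 IPC+IRI arrays, and on none of Control or IRI+Hemin. Slc26a3 entered IRI+Hemin vs IRI only through IRI, where it was high. By the processed signal it was at least 2.23-fold lower in IRI+Hemin than in IRI (adjusted p = 1.19e-05). With normexp the log2 difference was smaller, at -0.69 (adjusted p = 0.0355), so the fold is a bound for the processed signal alone. Slc26a10 was called once, in IRI+Hemin vs Hemin, where it was 2.62-fold lower (log2 difference -1.39, SE 0.25, adjusted p = 0.000251), with -2.97, -3.53, -3.70 and -2.28 against -1.57, -1.93, -1.80 and -1.60.

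**Figure D4:**
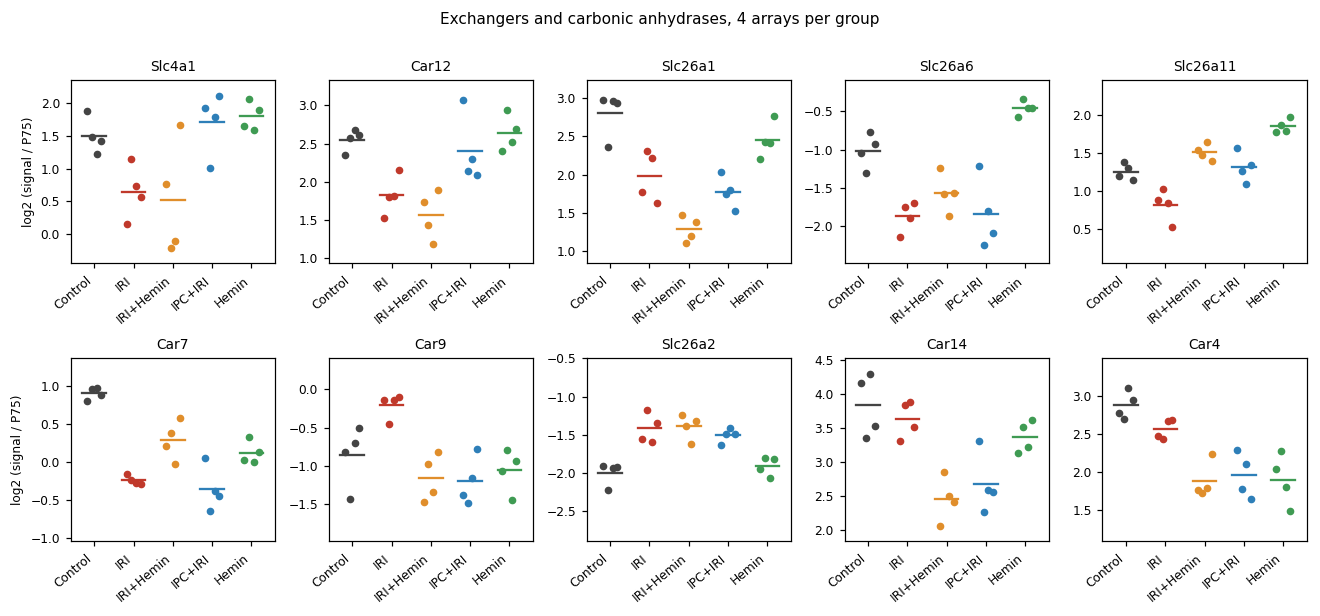
Levels of 10 exchangers and carbonic anhydrases on the 4 arrays of each group. The y axis is the log2 signal over the array's 75th percentile, points are arrays and bars are group means. IRI arrays lie below all Control arrays for Slc4a1, Car12, Slc26a1, Slc26a6, Slc26a11 and Car7 and above them for Car9 and Slc26a2, and Car14 is low in IRI+Hemin and IPC+IRI.

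Read by cell type, the 11 members of the intercalated cell were in part lower in IRI than in Control and in part higher in IPC+IRI than in IRI. In IRI vs Control 6 were lower (Atp6v1c2, Atp6v1b1, Atp6v1g3, Slc4a1, Slc26a7 and Car2) and none was higher, beside 33.7% lower and 17% higher among all genes, with 7 of 11 at an unadjusted p below 0.05 and a median of -0.34 beside -0.17 for all genes. Slc26a7, which enters each of these counts, passed the filter only through Control, where it was high, and was at 0.16 with normexp. Of these falls, normexp ended those of Atp6v1b1, Slc4a1, Slc26a7 and Car2, and single arrays left out ended those of Slc4a1 and Car2 (6 arrays each) and Atp6v1b1 (IRI replicate 1). Without normalization only the fall of Atp6v1c2 stayed called among the 6. Under hemin the fall was not one-sided, with 4 lower and 3 higher in IRI+Hemin vs Hemin, beside 27.8% and 16.4% of all genes. The 4 include Slc26a7, which passed the filter there only through Hemin, where it was high. In IRI+Hemin vs IRI 2 of 10 were lower and 2 higher, beside 18% and 26.1%. In IPC+IRI vs IRI 7 were higher (Slc4a1, Atp6v1c2, Atp6v1b1, Slc4a9, Atp6v0a4, Slc26a4 and Atp6v1g3) and Atp6v0d2 was lower, where 26% of all genes were higher and 17.7% lower, with a median of 0.54 beside 0.09. The rises of Slc4a1, Atp6v0a4, Slc26a4 and Atp6v1g3 were each lost without some single array, as given above. Both comparisons use the same 4 IRI arrays, so their values enter both. Markers of the same cell that are no members were given beside them. Of 10 markers, 4 were lower in IRI vs Control and none higher, among them Insrr (-0.86, adjusted p = 0.000741) and Rhcg, the ammonia channel (-0.94, adjusted p = 0.00736), but none was higher in IPC+IRI vs IRI, where Foxi1, the transcription factor of intercalated cells (-0.85, adjusted p = 0.0183), and Aqp6 (-1.08, adjusted p = 0.00525) were lower. The summed marker list ran from 4.67 to 5.45 in IRI and from 4.66 to 5.38 in IPC+IRI.

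Of the 5 members of the proximal tubule, 3 or more were called lower as genes in each of the 6 comparisons but Hemin vs Control, where 2 were lower and Slc26a6 higher, beside 17.5% and 18.4% of all genes. All 5 (Slc4a4, Car14, Slc26a1, Car4 and Slc26a6) were lower in IPC+IRI than in Control, with a median of -1.03 beside -0.09 for all genes, of which 32.6% were lower. In IRI vs Control 3 were lower (Slc26a6, Slc26a1 and Slc4a4), beside 33.7% of all genes, and in IRI+Hemin vs Hemin 3 (Slc26a1, Slc26a6 and Car14), beside 27.8%. In IPC+IRI vs IRI 3 were lower (Car14, Car4 and Slc4a4), beside 17.7%, but the call of Slc4a4 (-0.50, adjusted p = 0.0337) was lost under 12 of 22 alternatives and its probe A_52_P457567 was higher (1.37, adjusted p = 0.000345). In IRI+Hemin vs IRI 3 were lower (Car14, Slc26a1 and Car4), beside 18%, with the opposed probes of Slc26a1 given above. Without normalization 2 of the 5 (Slc4a4 and Car14) stayed called lower in IPC+IRI vs Control, none in IPC+IRI vs IRI and 1 (Car14) in IRI+Hemin vs IRI. Normexp ended the calls of Car4 in IPC+IRI vs IRI (adjusted p = 0.0584) and in IRI+Hemin vs IRI (adjusted p = 0.206). Of 8 proximal tubule markers outside the families, 3 (37.5%) were lower in IRI and 5 (62.5%) in IPC+IRI against Control, beside 33.7% and 32.6% of all genes. None was higher in either, beside 17% and 23.1%. In IPC+IRI vs IRI 4 were lower and 2 higher, beside 17.7% and 26%. In IRI+Hemin vs IRI 3 were lower and 2 higher, beside 18% and 26.1%. The summed level of these markers was 8.55 to 8.73 in Control, 8.17 to 8.59 in IRI and 7.79 to 8.16 in IPC+IRI. Of 11 leukocyte markers 5 were higher and 1 lower in IPC+IRI than in Control, beside 23.1% and 32.6% of all genes. Their summed level was 2.10 to 2.61 in Control and 3.62 to 5.35 in IPC+IRI. The part of these shifts in the members' differences was not tested.

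Ischemia was compared with no ischemia in untreated mice and in mice given hemin, with no array in common. Of the 20 members lower in IRI vs Control, 10 were also lower in IRI+Hemin vs Hemin, which is 50% of the first list and 58.8% of the 17 in the second. Among all genes tested the same overlap was 3239 genes, or 54.3% and 62.5%. The 10 shared members were Slc26a7, Slc4a8, Car12, Slc4a3, Atp6v1g3, Slc4a1, Slc26a6, Slc26a1, Atp6v1c2 and Slc26a11. Slc26a7 passed the filter in both comparisons only through the group without ischemia, where it was high. In IRI+Hemin vs Hemin the call of Slc26a11 was lost under 6 of 19 alternatives, 4 of them single arrays left out, and normexp ended the calls of Slc26a11, Slc4a8, Slc26a7 and Slc4a3. Of the 4 higher members, 3 were shared with the 6 of the other list (Slc26a2, Car13 and Atp6v0a1), or 75% and 50%, beside 65.1% and 64.1% among all genes. IRI+Hemin and Hemin were scanned on different days, so that this second comparison also crosses a day.

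**Figure D5:**
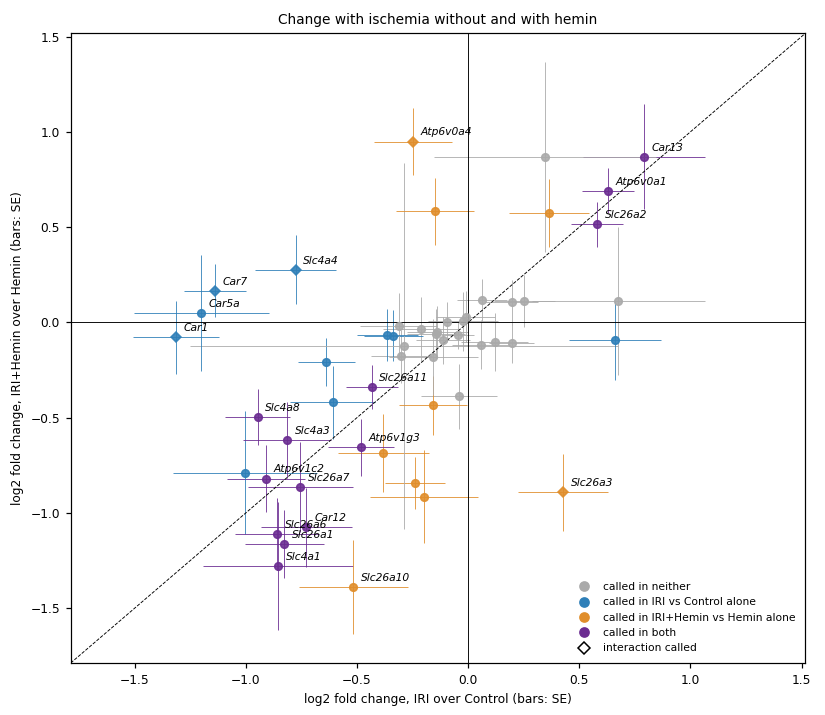
Change with ischemia in 53 members without hemin (x axis, IRI over Control) and with hemin (y axis, IRI+Hemin over Hemin), both as log2 fold changes with bars of 1 SE. Colour shows in which comparison a member was called, diamonds mark members whose 2 changes differ by the interaction test, and the dashed line is equality. Slc26a1, Slc26a6, Car12 and Atp6v1c2 fall in both, and Atp6v0a4, Car7, Car1 and Slc4a4 lie off the line.

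For 6 of 55 members the change with ischemia differed between mice with and without hemin by the interaction test, beside 7.77% of all genes. Car7 had the smallest adjusted p (difference of the log2 changes 1.30, SE 0.20, adjusted p = 0.000688), with -1.14 after ischemia alone and 0.17 under hemin, where the Hemin arrays were already low. Atp6v0a4 followed (1.20, SE 0.25, adjusted p = 0.00667), with -0.25 without and 0.95 with hemin. These were the only 2 of the 6 that remained called with normexp, and the Atp6v0a4 call was lost without normalization and for its brightest probe. Car1 (1.24, adjusted p = 0.00942) and Slc4a4 (1.05, adjusted p = 0.0179) fell in IRI and showed no called change under hemin. In Hemin both were already lower than in Control (log2 differences -0.80 and -0.89), and the call of Slc4a4 in IRI rests on 1 of 3 probes. The groups of this test were scanned on different days. Slc4a5 (adjusted p = 0.0213, 0.999 with normexp) was above background on no array of 3 of the 4 groups and Slc26a3 (adjusted p = 0.00888, 0.945 with normexp) on none of 2 of them, so the sizes of their interactions are not measured.

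Other genes of acid-base handling moved in both directions. Of 19 such genes on the array, 4 rose and 5 fell among 18 tested in IRI vs Control, 1 rose and 7 fell among 18 in IPC+IRI vs Control, and none rose and 4 fell among 17 in IPC+IRI vs IRI. The shares that fell, 27.8%, 38.9% and 23.5%, stand beside 33.7%, 32.6% and 17.7% of all genes, and those that rose, 22.2%, 5.56% and 0%, beside 17%, 23.1% and 26%. Slc9a3, the apical sodium-proton exchanger of the proximal tubule, was lower in IPC+IRI than in Control (log2 difference -1.12, SE 0.25, adjusted p = 0.00109) and in IRI+Hemin than in IRI (log2 difference -1.08, SE 0.25, adjusted p = 0.00224), as were Car4 and Car14, and its scaffold Slc9a3r1 was lower in IRI+Hemin than in IRI (log2 difference -1.23, SE 0.17, adjusted p = 4.12e-05). Of the V-ATPase partners outside the name pattern, Tcirg1, the a3 subunit, rose in IRI (0.45, adjusted p = 0.043) with Atp6v0a1, and Atp6ap1 was lower in IPC+IRI than in IRI (-0.35, adjusted p = 0.0233).

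Probes of 1 gene opposed each other beyond Slc4a7 and Slc4a4. Of the 27 members with several probes, 4 had called probes of both signs in IRI+Hemin vs IRI, 3 in IPC+IRI vs IRI, 3 in IPC+IRI vs Control and 1 in Hemin vs Control, and none did in IRI vs Control. Besides the genes above they were Atp6v0a1 in IPC+IRI vs Control, where its probes gave 1.28, 1.74 and -0.45, Atp6v0a2 in IRI+Hemin vs IRI (0.59 and -0.94), and Slc4a1ap in the comparisons of IPC+IRI. Slc4a1ap had no called change as a gene, at -0.11, adjusted p = 0.222 in IPC+IRI vs Control, from probes at -0.37 and 0.92.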

How the data were processed

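Kidney RNA of 20 mice, 4 per group, was measured on 1-colour Agilent arrays. The deposited intensity values are the authors' scanner output, a processed signal per spot from which Agilent Feature Extraction (9.5.3.1 in the file headers) had subtracted the background. The authors also deposited a log2 matrix, and 100% of its values for single-spot probes lay within 0.001 of the log2 of that signal, with 18.1% of its cells blank. Probe positions are the mm9 coordinates of the array files, and no annotation of that build was used here.

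From the 43379 non-control spots (41174 probes), flagged spots were dropped and repeated spots of a probe averaged. Signals were scaled to the array's 75th percentile, the mean was taken over all probes that carry 1 gene name, following the study's methods, and values were put on the log2 scale. To enter a comparison, a gene needed 3 of 4 arrays of either group well above background and no more than 1 missing value. A mean per group was fitted over all 20 arrays with limma 3.58.1 in R 4.3.3 (files read with the package data.table, version 1.17.8), and p-values were adjusted by Benjamini-Hochberg over all genes in each of 6 comparisons and the interaction, with calls at an adjusted p below 0.05. Replicates are arrays that the labels count as samples of 1 group, and nothing says more of their origin than the mouse group, so p-values measure the spread between these arrays. An exact permutation test of 4 against 4 arrays cannot go below p = 0.029. Fits were tested on simulated data.

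The members and lists were chosen with earlier results of these data known. Named genes are the members of the intercalated, proximal and broad pump lists, 15 listed members, and the 5 largest called rises and falls per comparison, 47 in all; Slc4a3, Car11, Atp6v1g2 and the genes outside the families were named after their values were seen. Alternatives were normexp (offset 50), no normalization, quantile normalization, the percentile over probes well above background on all arrays, brightest probe, mean of log2 values, single probes, the deposited log2 values, dim genes all kept or more strictly removed, a fit of only the groups compared, a replicate block and each array left out. A slide or scan-day block could not be fitted beside the group means, since each group lies on 1 slide and 1 day. At-least folds set the bright group's mean against the higher of the dim probe's own signal and the lowest signal well above background on each array. The red cell marker list is not reported here as a whole. The precision is limited by 4 arrays per group.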

Additional observations from a re-analysis of the deposited data

Results flagged for a closer look

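In 235 sets of 4 arrays, 1 for each of the 47 named members in each group, 19 held an array whose gap to the nearest other exceeded the critical share of their range in Dixon's test, a limit that chance passes in about 1 of 20 sets. Control replicate 2 was the array in 7 of them. It was low for Atp6v0c at 2.07 (the other Control arrays at 2.58 to 2.66), for Atp6v1a at 2.81 (3.25 to 3.32), for Slc26a1 at 2.36 (2.94 to 2.97), for Slc26a2 at -2.23 (-1.94 to -1.91) and for Slc4a7 at 1.19 (3.89 to 4.05). The same array was high for Atp6v0e at 4.32 (3.42 to 3.54) and for Atp6v1f at 5.45 (4.80 to 4.88). It also had the lowest 75th percentile of the 20 arrays, 146.7, and stood above the other Control arrays in the fat cell genes Adipoq, at 2.46 (-7.08 to -6.78), and Cfd, at 5.30 (-6.01 to -3.45), and in the red cell gene Hba-a1, at 6.26 (3.98 to 4.58). Their part in the members' values was not tested. For each of the 7 members but Slc26a2 it lay on that side of the other Control arrays on which the mean of each later group lies.

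IRI+Hemin replicate 4 stood apart for 4 members, low for Atp6v0a2 at 0.60 (1.02 to 1.09) and high for Atp6v1b1 at 0.71 (0.05 to 0.09), Car4 at 2.24 (1.73 to 1.80) and Car5a at -1.70 (-2.52 to -2.42). IPC+IRI replicate 1 was high for Atp6v0e at 4.50 (4.25 to 4.30) and Atp6v1d at 5.39 (4.54 to 4.65), and IPC+IRI replicate 2 was high for Car8 at -2.03 (-3.77 to -3.65). In IRI, replicate 4 was high for Atp6v0a1 at -0.17 (-0.48 to -0.43), replicate 2 low for Car9 at -0.46 (-0.14 to -0.09) and replicate 3 low for Slc4a8 at -3.22 (-3.05 to -3.02). In Hemin, replicate 4 was low for Atp6v1h at 1.83 (2.05 to 2.08) and replicate 2 high for Slc4a2 at 1.90 (1.64 to 1.67).

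The change with ischemia differed with hemin in 6 members by the interaction test of limma. The difference was 1.62 for Slc4a5 (SE 0.41, adjusted p = 0.0213), 1.30 for Car7 (SE 0.20, adjusted p = 0.000688), 1.24 for Car1 (SE 0.27, adjusted p = 0.00943), 1.20 for Atp6v0a4 (SE 0.25, adjusted p = 0.00667), 1.05 for Slc4a4 (SE 0.26, adjusted p = 0.0179) and -1.32 for Slc26a3 (SE 0.29, adjusted p = 0.00888). Slc4a5 was above background on no array of 3 of the 4 groups compared and Slc26a3 on none of 2, so these 2 differences are not measured sizes, and with normexp their adjusted p was 0.999 and 0.945.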

How the results depend on the processing

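Of 139 named calls under 2684 alternative values, 2361 kept direction and threshold, 297 kept only the direction, 26 turned direction (10 of them past the threshold) and 31 calls were never lost; of the 139 calls, 58 were lost without normalization and 55 with normexp. Beside 4 higher and 20 lower members in IRI vs Control, 9 and 20 in IPC+IRI vs Control, 16 and 14 in IPC+IRI vs IRI, 10 and 15 in IRI+Hemin vs IRI, 7 and 13 in Hemin vs Control, 6 and 17 in IRI+Hemin vs Hemin and 6 in the interaction, normexp gave 1 higher and 7 lower in IRI vs Control, 5 higher in IPC+IRI vs Control, 8 lower in IPC+IRI vs IRI, 9 lower in IRI+Hemin vs Hemin and 2 in the interaction. Without normalization, which moved the median of all genes by 0.12, 0.44, 0.32, 0.36, 0.56, -0.08 and -0.20 (log2, in the same order), there were 9 lower in IRI vs Control, 7 lower in IPC+IRI vs Control, 1 lower in IPC+IRI vs IRI, 16 higher and 4 lower in IRI+Hemin vs IRI, 28 higher and 3 lower in Hemin vs Control, 1 higher in IRI+Hemin vs Hemin and 3 in the interaction. The percentile over probes well above background on all arrays gave 5 higher in IPC+IRI vs Control. The deposited values gave 1 higher in IRI vs Control, 5 higher in IPC+IRI vs Control, 9 lower in IPC+IRI vs IRI and 8 lower in IRI+Hemin vs IRI, and the compared arrays alone gave 10 higher in IPC+IRI vs IRI. Within the 1 scan day of IRI vs Control, the compared arrays alone gave 5 higher and 19 lower.

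The share of higher among all calls was 31% in IPC+IRI vs Control, 53.3% in IPC+IRI vs IRI, 40% in IRI+Hemin vs IRI, 35% in Hemin vs Control and 26.1% in IRI+Hemin vs Hemin, and without normalization it was 65%, 94.4%, 80%, 90.3% and 6.67%. With the percentile over bright probes it was 17.2% in IPC+IRI vs Control and 23.8% in Hemin vs Control, and with the deposited values 4.17% in IRI vs Control (16.7% as reported), 20% in IPC+IRI vs Control and 65.2% in IRI+Hemin vs IRI.

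Leaving out each array in turn gave 3 to 4 higher and 17 to 19 lower in IRI vs Control, 6 to 11 and 18 to 23 in IPC+IRI vs Control, 9 to 17 and 12 to 13 in IPC+IRI vs IRI, 9 to 11 and 12 to 15 in IRI+Hemin vs IRI, 5 to 8 and 11 to 14 in Hemin vs Control, 5 to 6 and 13 to 16 in IRI+Hemin vs Hemin and 6 to 8 in the interaction; the 16 higher in IPC+IRI vs IRI were 9 without IRI replicate 1 and 9 without IPC+IRI replicate 1. Among the reversals, normexp gave 0.16 for Slc26a7 in IRI vs Control, -0.26 for Car5a and -0.035 for Slc4a8 in IPC+IRI vs IRI, -0.11 for Slc4a8 in IRI+Hemin vs IRI and 0.0072 for Slc26a3 in IRI+Hemin vs Hemin. Without normalization Atp6v0a1 was at 0.031 in IRI+Hemin vs IRI and at 0.17 in Hemin vs Control, where Car2 was at 0.14 and Atp6v0d1 at 0.017. The brightest probe gave -0.042 for Atp6v0a2 in IPC+IRI vs Control and 0.026 for Slc4a4 in IPC+IRI vs IRI (0.026 for A_51_P273800 alone), the mean of log2 values 0.27 for Car5b in IRI vs Control, -0.094 for Atp6v1g3 in IPC+IRI vs IRI and 0.0052 for Atp6v0a1 in Hemin vs Control, and the deposited values -0.85 for Car12 in IPC+IRI vs IRI. None of these passed the threshold. The others, which did, came from single probes. A_51_P279997 and A_52_P333902 of Slc4a7 gave 0.99 and 1.03 in Hemin vs Control, 1.90 and 0.92 in IPC+IRI vs Control, 0.90 and 0.74 in IPC+IRI vs IRI and 1.11 and 0.78 in IRI+Hemin vs IRI, A_52_P457567 of Slc4a4 gave 1.37 in IPC+IRI vs IRI, and A_51_P279914 of Slc26a1 gave 0.62 in IRI+Hemin vs IRI. The cause of these shifts was not tested.

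Replicate numbers do not pair the arrays, since same-numbered deviations correlated between -0.329 and 0.209 (median -0.02, 6 of 40 pairs over 0.1). With the replicate block, IRI vs Control had 4 higher and 19 lower, IPC+IRI vs Control 7 and 20, IPC+IRI vs IRI 16 and 14, IRI+Hemin vs IRI 10 and 16, Hemin vs Control 7 and 14, IRI+Hemin vs Hemin 6 and 17 and the interaction 6, and 3 of 139 named calls were lost, Car2 in IRI vs Control and Atp6v1h and Atp6v1d in IPC+IRI vs Control. Slide and scan day as blocks were not run, since neither can be estimated beside the group means; IRI vs Control lies within 1 day.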
